A study of Mus musculus with 12 samples.

Results

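The genes described here are the constitutive proteasome and its regulators, defined by symbol: every gene whose name starts with Psma to Psmg and a digit, without the interferon-induced immunoproteasome subunits Psmb8, Psmb9 and Psmb10 and without names ending in -ps. The rule found 47 genes of the 24062 in the deposited count table, and 45 of them passed the filter on low counts, as did 13509 genes in all. The 2 that did not pass are Psma8, known from testis, with 0 to 6 counts in a library, and Psmb11, known from thymic epithelium, with 0 or 1 count. The rule also takes in Psmc3ip, a partner of meiotic recombinases that is no proteasome subunit, which had 39 to 84 counts in a library.

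The libraries come from mouse CD4+ T cells in 6 groups of 2, all on the C57BL/6 strain: regulatory T cells (CD4+GFP+, Treg) and conventional T cells (CD4+GFP-, Tconv), each from the tumours of tumour-bearing (TB) mice, from the spleens of TB mice and from the spleens of normal mice. TB mice had received 500000 TC-1 cells, a mouse lung epithelial tumour line, through the tail vein, and organs were taken 3 weeks later. Negative selection for CD4+ cells preceded the sort on GFP, and the labels name neither the gene that drives GFP nor the age or sex of the mice. Group names below give the site and the cell type: tumour Treg and tumour Tconv, TB spleen Treg and TB spleen Tconv, normal spleen Treg and normal spleen Tconv. Whether different mice gave the 2 libraries of a group is not in the labels, so a p-value measures only the spread between these libraries. No T cells from a tumour-free lung were included, so tumour-over-spleen differences and differences of organ cannot be told apart.

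The proteasome degrades proteins that carry ubiquitin. Its 20S core is a barrel of alpha and beta rings with the proteolytic sites inside, and its 19S particle recognises, unfolds and feeds in substrates with a ring of ATPases; both together are the 26S proteasome. Other caps, the PA28 and PA200 activators, open the core without ATP, and dedicated chaperones assemble core and base. In lymphocytes a part of the core carries immunoproteasome subunits, and in Treg the proteasome is also known to degrade FOXP3 itself.

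Depth was 18624132 to 24111546 counts per library. Levels are given as CPM, counts divided by a library size that TMM scales on the assumption that most genes are unchanged. Foxp3, the lineage factor of Treg, stood at 1155 and 1247 CPM in tumour Treg and at 989 to 1042 CPM in spleen Treg, against 11.5 to 19.6 CPM in the 6 Tconv libraries, and Cd3e at 603 CPM or more in all 12. Tumour libraries also held transcripts of other cells: a list of 9 fibroblast genes summed to 549 and 556 CPM in tumour Treg and to 297 and 719 CPM in tumour Tconv, against 0.191 to 2.16 CPM in the 8 spleen libraries, where between 3 and 8 of the 9 had 0 counts in a library. A list of 12 macrophage and monocyte genes summed to 301 and 412 CPM in tumour Treg and to 195 and 486 CPM in tumour Tconv, against 7.77 to 22.0 CPM in spleen. All 8 fibroblast genes that could be tested were higher in tumour than in TB spleen in both cell types by edgeR, and of the 12 macrophage genes 12 were higher in Treg and 11 in Tconv. Their part in any difference between tumour and spleen below was not tested, and in bulk RNA fewer cells of a type and less RNA per cell cannot be told apart.

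The 31 subunits of the 26S particle were lowest in tumour Tconv and TB spleen and higher in tumour Treg and the spleen of normal mice. Their summed level was 3357 ± 90.6 CPM in tumour Treg (SD, n = 2 here and in the other groups) and 2854 ± 17.3 CPM in tumour Tconv. It was 2931 ± 3.46 CPM in TB spleen Treg and 3028 ± 65.6 CPM in TB spleen Tconv, against 3446 ± 92.3 CPM in normal spleen Treg and 3457 ± 39.1 CPM in normal spleen Tconv. As a share of all counts, which is scaling by library size, the 31 genes made up 0.327% and 0.314% in tumour Treg, against 0.268% and 0.277% in tumour Tconv and 0.311% and 0.314% in TB spleen Treg, so on that scale tumour Treg and TB spleen Treg overlapped. The assembly chaperones had another order. The 7 genes of this group summed to 138 ± 4.49 CPM in tumour Treg and 144 ± 0.382 CPM in tumour Tconv, to 166 ± 6.24 CPM in TB spleen Treg and 190 ± 2.76 CPM in TB spleen Tconv, and to 193 ± 2.81 CPM in normal spleen Treg and 217 ± 0.099 CPM in normal spleen Tconv. All 4 tumour libraries lay below all 8 spleen libraries in this sum. Of the 45 tested genes, 17 had their highest group mean in tumour Treg, 17 in normal spleen Tconv, 10 in normal spleen Treg and 1 in tumour Tconv. The lowest group mean lay in tumour Tconv for 20 genes, in TB spleen Treg for 13, in tumour Treg for 7, in normal spleen Treg for 3 and in TB spleen Tconv for 2.

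**Figure D1:**
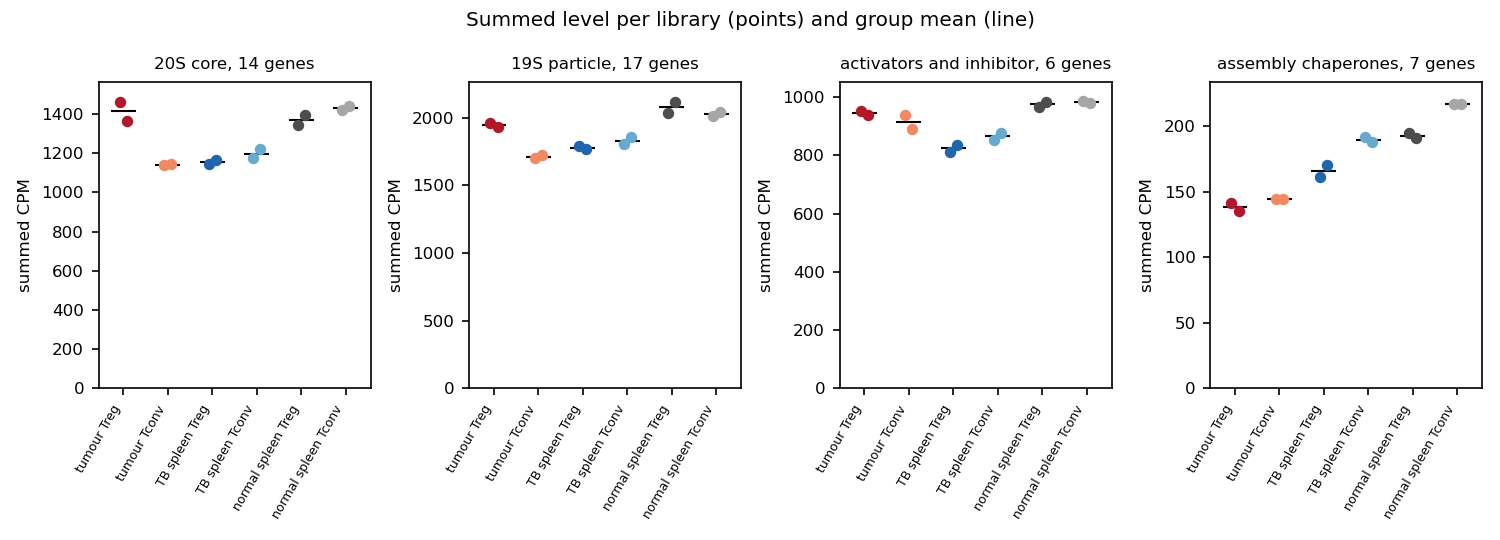
Summed CPM of the 20S core (14 genes), the 19S particle (17 genes), the activators and inhibitor (6 genes) and the assembly chaperones (7 genes) in each of the 12 libraries; points are libraries and lines are means of 2. Core and 19S sums were higher in tumour Treg than in tumour Tconv and TB spleen Treg, although with library-size scaling the 19S sum was lower in tumour Treg than in TB spleen Treg (0.187% and 0.184% of counts, against 0.19% and 0.19%), and the chaperones had their lowest sums in the 4 tumour libraries.

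**Figure D2:**
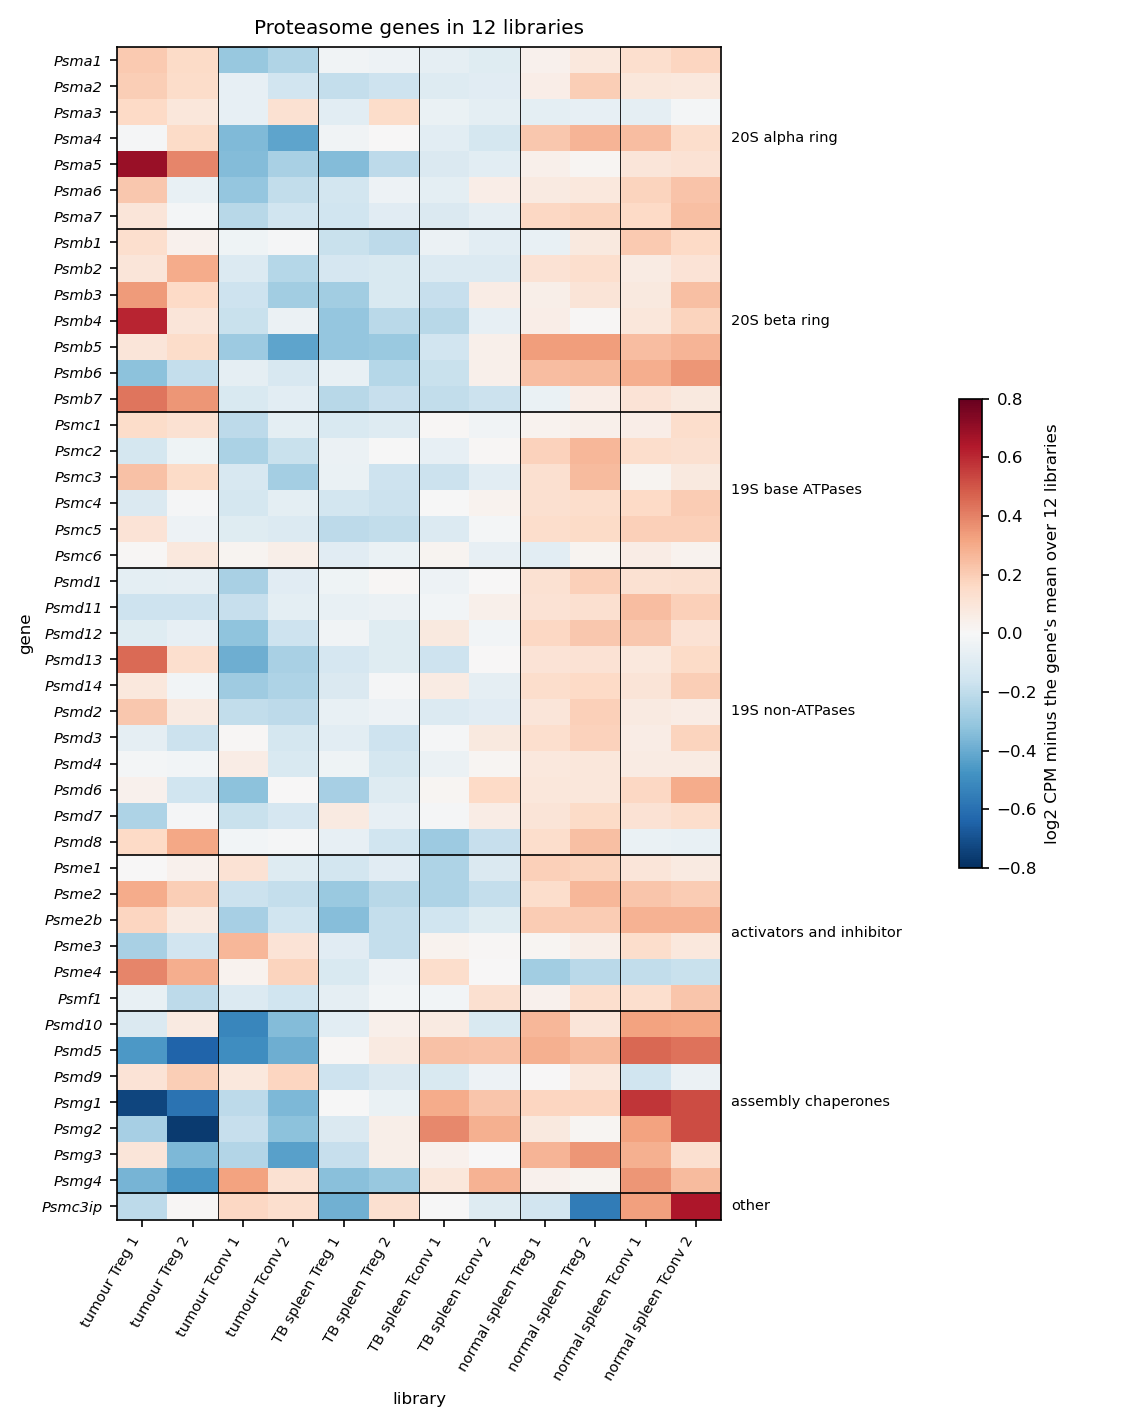
Level of the 45 tested genes in the 12 libraries, as log2 CPM minus the gene's mean over all 12, grouped by role; red is above and blue below the mean. Tumour Treg libraries are red for most core genes and blue for Psmb6, Psmg1 and Psmd5, and the 2 tumour Tconv libraries are blue for most of the 26S particle.

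Within the tumour, Treg had more core proteasome RNA than Tconv. Of the 45 genes, 21 (46.7%) were higher and 3 (6.67%) lower in tumour Treg than in tumour Tconv at an adjusted p below 0.05 in edgeR's quasi-likelihood test, while 27.2% and 26.7% of all 13509 genes were higher and lower. The median log2 fold change was 0.16 over the 45 genes and 0.00 over all genes tested. Of the 14 core genes 11 were higher, counted as 6 of 7 alpha and 5 of 7 beta subunits, and so were 6 of the 17 genes of the 19S particle. The other 4 higher genes were Psme2, Psme2b and Psme4 of the activators and the chaperone Psmd10, and the 3 lower genes were Psme3, Psmg1 and Psmg4. All 24 calls were also made with scaling by library size, with DESeq2 size factors, and by DESeq2 and limma-voom. Of the 24, 16 held under every alternative tried. Those of Psma6, Psma7, Psmb4, Psmc1, Psmd8, Psmd10, Psme4 and Psmg1 did not, and 3 calls ended in the fit of those groups alone. The 8 tested fibroblast genes had log2 fold changes of -0.07 to 0.28 in this comparison and 1 of the 12 macrophage genes was called, and both sums differed more between the 2 tumour Tconv libraries than between the group means. Lung and tumour epithelium genes summed to 125 to 180 CPM in tumour Treg, against 94.5 to 111 CPM in tumour Tconv. Dendritic cell genes summed to 36.3 to 40.0 CPM, against 11.2 to 19.1 CPM. Sums of B cell and CD8 T cell genes were also higher in tumour Treg. Endothelium genes went the other way, with 107 to 128 CPM against 255 to 259 CPM, as did NK cell genes. The part of these lists was not tested. Genes of proliferation were also higher in tumour Treg, 14 of 20 with 3 lower, and summed to 1519 and 1558 CPM in tumour Treg, against 1028 and 1185 CPM in tumour Tconv; their part in the difference was not tested.

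Against the spleen of TB mice, 10 of the 14 core genes rose in tumour Treg, while 4 of the 14 fell in tumour Tconv. In tumour Treg 20 of the 45 genes (44.4%) were higher and 3 (6.67%) lower than in TB spleen Treg, beside 32.8% and 28.7% of all genes. In tumour Tconv 1 gene (2.22%) was higher and 11 (24.4%) lower than in TB spleen Tconv, beside 26.4% and 22.8% of all genes, so that the share of lower genes was near that of all genes. The median log2 fold change was 0.12 in Treg and -0.10 in Tconv, against 0.02 and 0.00 over all genes. Both results depend on the scaling. With library sizes alone the median of all genes moved by -0.16 in Treg and by -0.11 in Tconv, and 11 genes were then higher and 10 lower in tumour Treg and 0 higher and 26 lower in tumour Tconv. The median of the 45 genes was then -0.04 in Treg, above the -0.14 of all genes, and -0.21 in Tconv. Over all genes the same change moved the share of calls that were higher to 39.9% in Treg, against 53.3% with TMM, and to 41.5% in Tconv, against 53.7% with TMM. Of the 23 calls in Treg, 13 held under every alternative tried: Psma2, Psma5, Psmb3, Psmb4, Psmb5, Psmb7, Psmd8, Psmd13, Psme2, Psme2b and Psme4 were higher and Psmd5 and Psmg1 lower. In Tconv 4 of the 12 held: Psma4, Psmd5, Psmg1 and Psmg2, each lower. The count of lower genes in Tconv fell to 5 without tumour Tconv library 1, and that of higher genes was 0 without TB spleen Tconv library 1 and 2 without tumour Tconv library 2 or TB spleen Tconv library 2.

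The difference between these changes was tested as an interaction, the tumour-over-spleen change in Treg minus that in Tconv. It was positive for 19 of the 45 genes (42.2%), of which 16 encode 26S subunits, beside 11.7% of all genes. By edgeR 0 of the 45 genes were negative, beside 13.1% of all genes; 1 was negative at an unadjusted p below 0.05, and DESeq2 and limma-voom called 0. The median was 0.26, against -0.04 over all genes. The count was 12 without tumour Tconv library 1 and 11 without TB spleen Treg library 1, and 1 gene was negative without tumour Tconv library 2. Of the 19, 9 were positive under every alternative: Psma1, Psma2, Psma5, Psmb3, Psmb5, Psmb7, Psmd13, Psme2 and Psme2b. Of the 20 proliferation genes 2 were positive and 5 negative in this interaction, beside 11.7% and 13.1% of all genes, and the 8 tested fibroblast genes had a median of -0.66; the part of either list in the result was not tested.

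**Figure D3:**
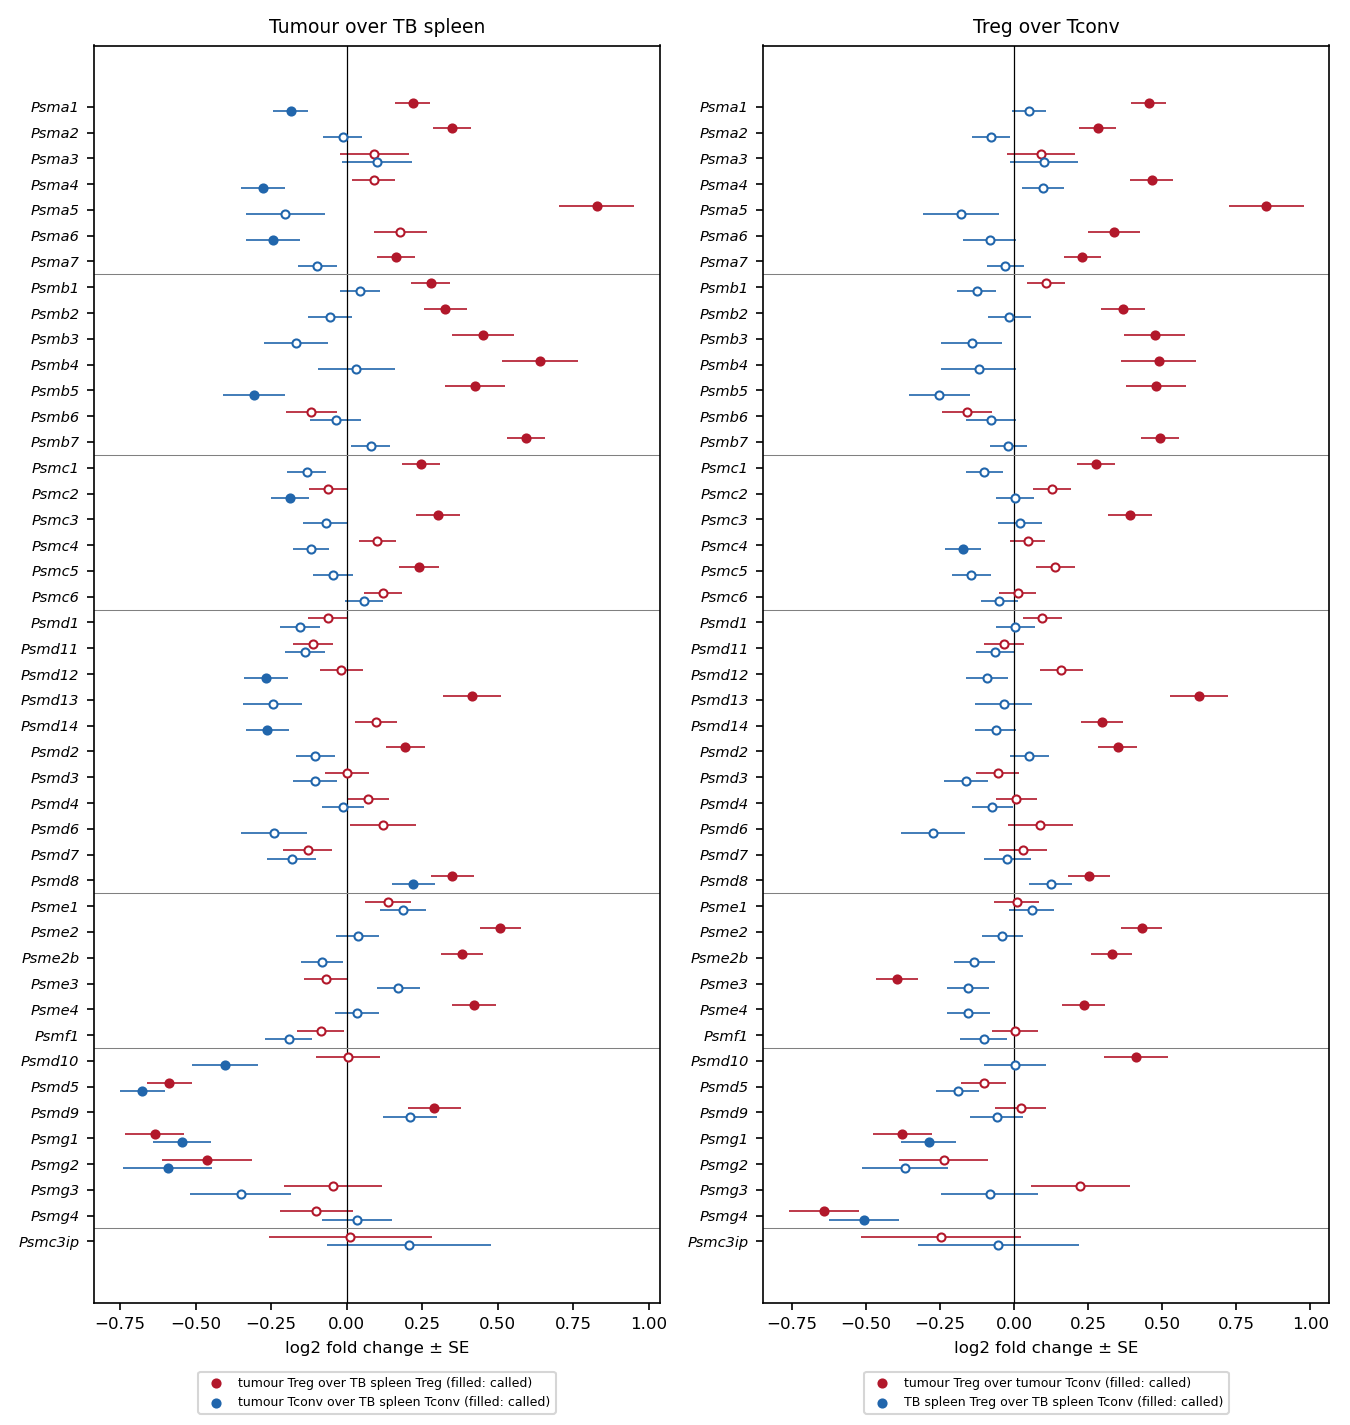
Log2 fold change with its standard error for the 45 tested genes, on the left of tumour over TB spleen in Treg (red) and Tconv (blue), on the right of Treg over Tconv in tumour (red) and TB spleen (blue); filled points passed the adjusted p of 0.05. Most core genes lie right of 0 in red on both sides, and Psmd5, Psmg1 and Psmg2 lie left of 0 in both colours on the left; with library-size scaling the left panel moves by -0.16 in Treg and -0.11 in Tconv over all genes, and 10 genes are then lower in tumour Treg.

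In spleen, tumour bearing went with less proteasome RNA in both cell types. In Treg 16 of the 45 genes (35.6%) were lower in TB than in normal mice, beside 8.5% of all genes, and 0 were higher by edgeR, beside 6.8% of all genes; at an unadjusted p below 0.05 1 was higher, and DESeq2 and limma-voom called 0. In Tconv 12 genes (26.7%) were lower, beside 7.49% of all genes, and 1 was higher, beside 9.74%. The median log2 fold change was -0.23 in Treg and -0.19 in Tconv, against 0.00 over all genes in both. Both TB libraries lay below both normal ones for 40 of the 45 genes in Treg, beside 32.1% of all genes tested, and for 39 in Tconv, beside 30.8%. The lower genes included 13 of the 31 genes of the 26S particle in Treg and 8 in Tconv, and 7 genes were lower in both: Psma4, Psma7, Psmb6, Psmc5, Psme1, Psme2 and Psme2b. Of these, Psme2 and Psme2b held under every alternative in both cell types, and the call of Psme1 in Treg ended without any 1 of the 4 libraries. Without 1 TB spleen Treg library the count of lower genes in Treg was 8 or 5 and without 1 normal spleen Treg library 9 or 4. In Tconv it was 3 or 7 without 1 TB spleen library, 4 or 3 without 1 normal spleen library, 19 without either tumour Treg library and 5 with library-size scaling. Over all genes, library-size scaling moved the share of calls that were higher to 66.5% in Treg, against 44.4% with TMM, and to 78.5% in Tconv, against 56.5% with TMM. A replicate block by the number in a library's description, chosen after seeing the data, ended 12 of the 16 calls in Treg and 10 of the 13 in Tconv. The higher gene in Tconv was Psme4, whose call ended with that block, without TB spleen Tconv library 1 and without either normal spleen Tconv library. No gene passed the test of a difference between the cell types: edgeR called 0 of 45 in either direction, beside 0.222% of all genes higher and 0.629% lower, with 0 positive and 1 negative at an unadjusted p below 0.05, and 0 by DESeq2 and limma-voom.

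Treg and Tconv of the spleen differed in few of these genes. In TB spleen 0 genes were higher in Treg than in Tconv by edgeR, also at an unadjusted p below 0.05 and by DESeq2 and limma-voom, and 3 (6.67%) were lower, beside 21% and 19.4% of all genes. In normal spleen 1 gene (2.22%) was higher in Treg and 2 (4.44%) were lower, beside 21.8% and 18.7% of all genes. The 3 lower genes in TB spleen were Psmg1, Psmg4 and Psmc4, and in normal spleen Psmd8 was higher and Psmg1 and Psmc3ip lower. The count of 3 was 5 without either tumour Treg library, 6 without either tumour Tconv library and 1 without either TB spleen Treg library or TB spleen Tconv library 2. In normal spleen the count of higher genes was 0 without normal spleen Treg library 2 or either normal spleen Tconv library, and that of lower genes was 5 without either tumour Treg library or tumour Tconv library 1 and 1 without either normal spleen Tconv library.

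**Figure D4:**
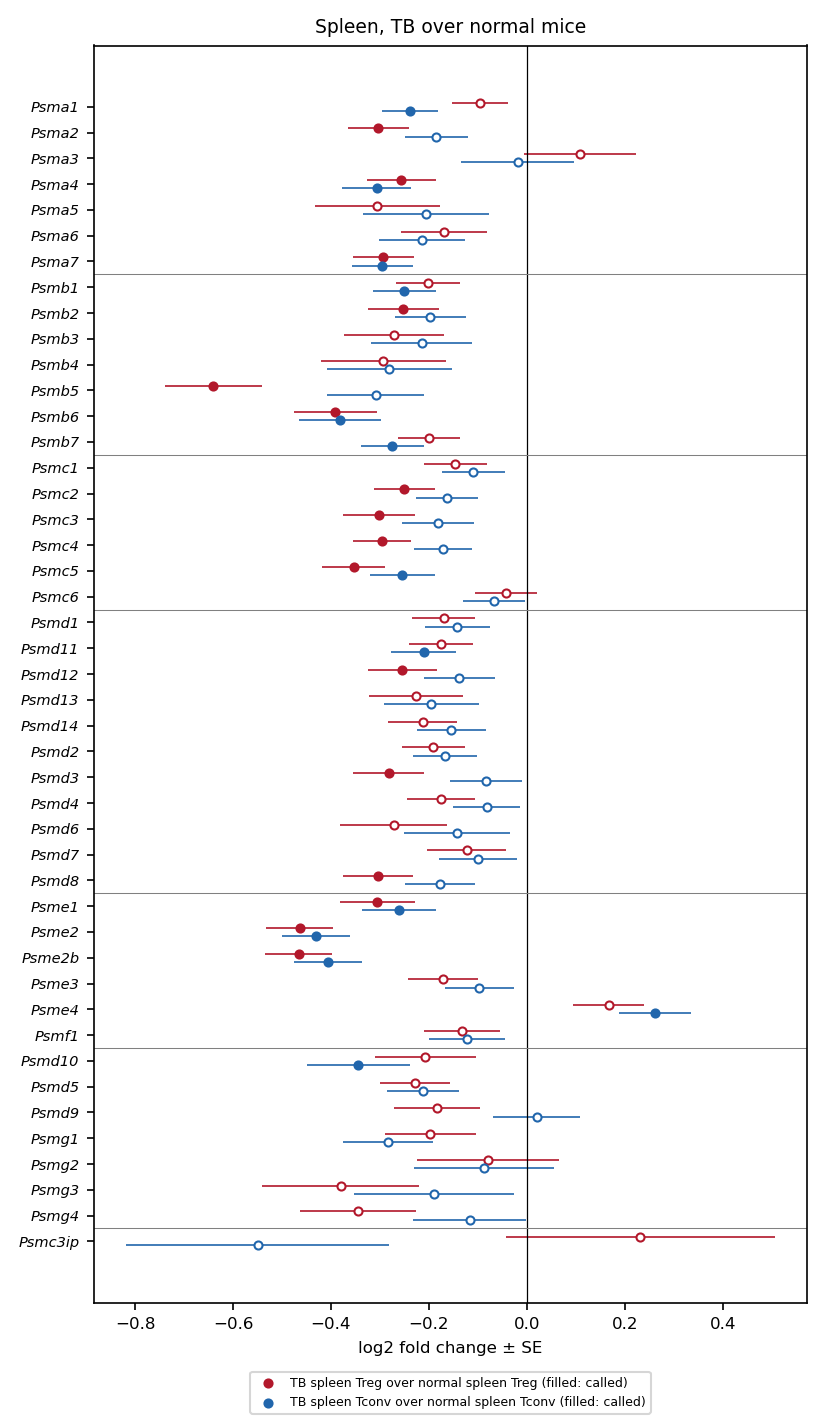
Log2 fold change with its standard error of TB over normal spleen for the 45 tested genes in Treg (red) and Tconv (blue); filled points passed the adjusted p of 0.05. Nearly all points lie left of 0, with Psme4 right of 0 in both cell types; with library-size scaling the number of lower genes in Tconv is 5 in place of 12.

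Among the 3 catalytic subunits of the constitutive core, Psmb5 and Psmb7 were higher in tumour Treg and Psmb6 was not. Psmb5 carries the chymotrypsin-like site, and its counts are uncertain, as 88.5% of its transcript has a near-identical copy elsewhere in the genome. It stood at 18.8 and 19.5 CPM in tumour Treg and at 14.3 and 13.1 CPM in tumour Tconv. In TB spleen it stood at 14.2 and 14.3 CPM in Treg and 15.8 and 18.0 CPM in Tconv, and in normal spleen at 22.2 and 22.2 CPM in Treg and 20.8 and 21.2 CPM in Tconv. Both tumour Treg libraries lay above both tumour Tconv and both TB spleen Treg libraries and below all 4 normal spleen libraries. Its log2 fold change was 0.42 ± 0.10 (SE) in tumour over TB spleen Treg (adjusted p = 0.00283), 0.48 ± 0.10 in tumour Treg over tumour Tconv (adjusted p = 0.00154) and -0.64 ± 0.10 in TB over normal spleen Treg (adjusted p = 0.0017). The interaction of site and cell type was 0.73 ± 0.14 (adjusted p = 0.00344). In tumour over TB spleen Tconv it was -0.31 ± 0.10 (adjusted p = 0.0269). This call ended with DESeq2 (adjusted p = 0.146), in the fit of those groups alone, without tumour Tconv library 2 and without TB spleen Tconv library 2.

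Psmb7, with the trypsin-like site, had 98.2 and 93.2 CPM in tumour Treg, 67.1 and 68.8 CPM in tumour Tconv, 62.6 and 64.3 CPM in TB spleen Treg and 63.7 and 64.9 CPM in TB spleen Tconv. In normal spleen it had 70.3 and 75.6 CPM in Treg and 78.7 and 76.9 CPM in Tconv. The 2 tumour Treg libraries were above the other 10. Its log2 fold change was 0.59 ± 0.06 in tumour over TB spleen Treg (adjusted p = 6.95e-06) and 0.49 ± 0.06 in tumour Treg over tumour Tconv (adjusted p = 2.78e-05), and the interaction was 0.51 ± 0.09 (adjusted p = 0.00164). In tumour over TB spleen Tconv it was 0.08 ± 0.06 (adjusted p = 0.323). Of the exonic bases of Psmb7, 11.8% lie in exons of Nek6 on the opposite strand, and whether reads were counted by strand is not stated. Nek6, looked up after the values of Psmb7 were seen, had 286 and 223 counts in tumour Treg, 84 and 141 in tumour Tconv, 143 and 150 in TB spleen Treg and 20 and 39 in TB spleen Tconv. The log2 fold change of Nek6 was 0.86 in tumour over TB spleen Treg (adjusted p = 0.00619) and 1.98 in tumour over TB spleen Tconv (adjusted p = 9.83e-05). It was 0.99 in tumour Treg over tumour Tconv (adjusted p = 0.00329), and the interaction was -1.12 (adjusted p = 0.0402). The part of Nek6 reads in the counts of Psmb7 was not tested.

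Psmb6, with the caspase-like site, had 78.7 and 86.5 CPM in tumour Treg, 94.2 and 90.5 CPM in tumour Tconv, 94.8 and 84.3 CPM in TB spleen Treg and 87.4 and 102 CPM in TB spleen Tconv. It had 117 and 118 CPM in normal spleen Treg and 121 and 126 CPM in normal spleen Tconv. The 4 normal spleen libraries were above the other 8, and tumour Treg overlapped TB spleen Treg. The log2 fold change was -0.12 ± 0.08 in tumour over TB spleen Treg (adjusted p = 0.247) and -0.16 ± 0.08 in tumour Treg over tumour Tconv (adjusted p = 0.133). In TB over normal spleen it was -0.39 ± 0.08 in Treg (adjusted p = 0.00917). This call ended with a replicate block by description number, and without TB spleen Treg library 2 or normal spleen Treg library 2. The log2 fold change in Tconv was -0.38 ± 0.08 (adjusted p = 0.00951), a call that ended without TB spleen Tconv library 1 or normal spleen Tconv library 2.

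Each of these subunits has an interferon-induced counterpart that takes its place in the immunoproteasome. Psmb9, which replaces Psmb6, had 174 and 146 CPM in tumour Treg, against 86.0 and 76.4 CPM in tumour Tconv and 92.0 and 102 CPM in TB spleen Treg. The ratio of Psmb9 to Psmb6 counts was thus 2.21 and 1.69 in tumour Treg and between 0.844 and 1.21 in the other 10 libraries. The ratio of Psmb10 to Psmb7 counts went the other way, 1.33 and 1.27 in tumour Treg, against 1.39 to 2.3 elsewhere. For Psmb8 over Psmb5 it was 26.8 and 22.1 in tumour Treg, against 19.9 to 26.1 elsewhere, so the groups overlapped. The counts are not per length, so a ratio is compared only between libraries. All 3 immunoproteasome genes were higher in tumour Treg than in tumour Tconv, with log2 fold changes of 0.64 for Psmb8, 0.98 for Psmb9 and 0.25 for Psmb10.

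The other core subunits are structural. Psma5, an alpha ring subunit, had 19.7 and 16.0 CPM in tumour Treg, 9.59 and 10.2 CPM in tumour Tconv, 9.57 and 10.5 CPM in TB spleen Treg, 11.3 and 11.5 CPM in TB spleen Tconv, 12.6 and 12.3 CPM in normal spleen Treg and 13.1 and 13.2 CPM in normal spleen Tconv. Tumour Treg lay above all other libraries. Its log2 fold change in tumour Treg was 0.83 ± 0.13 over TB spleen Treg (adjusted p = 0.000119) and 0.85 ± 0.13 over tumour Tconv (adjusted p = 0.000103), and the interaction was 1.03 ± 0.18 (adjusted p = 0.00167), each of them the highest among the 45 genes. Psma5 had 170 to 453 counts in a library, and 76.8% of its transcript has a near-identical copy elsewhere in the genome, so its counts are uncertain.

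Psmb4, a beta ring subunit, had 198 and 139 CPM in tumour Treg, 115 and 126 CPM in tumour Tconv, 105 and 112 CPM in TB spleen Treg and 111 and 124 CPM in TB spleen Tconv. In normal spleen it had 135 and 130 CPM in Treg and 138 and 147 CPM in Tconv. The first tumour Treg library stood well above the second, and the second overlapped normal spleen Tconv. Tumour Treg had a log2 fold change of 0.64 ± 0.13 over TB spleen Treg (adjusted p = 0.000888) and 0.49 ± 0.13 over tumour Tconv (adjusted p = 0.00594); without tumour Treg library 1 these were 0.36 (adjusted p = 0.00476) and 0.21 (adjusted p = 0.0711). Psmb3, another subunit of the same ring, had 52.1 and 45.8 CPM in tumour Treg and 36.6 and 33.9 CPM in tumour Tconv. In TB spleen it had 33.9 and 37.8 CPM in Treg and 36.2 and 42.8 CPM in Tconv. It had 42.4 and 44.2 CPM in normal spleen Treg and 43.3 and 48.5 CPM in normal spleen Tconv. Its interaction was 0.62 ± 0.15 (adjusted p = 0.00926). Both tumour Treg libraries lay above both libraries of tumour Tconv and of TB spleen Treg. Psmb3 has 3 near-identical copies elsewhere in the genome, the longest over 80.7% of its transcript, so its counts are uncertain.

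Of the 8 remaining core genes, 5 were higher in tumour Treg than in TB spleen Treg, beside 32.8% of all genes. These were Psma1, Psma2, Psma7, Psmb1 and Psmb2, by 0.16 to 0.35 on the log2 scale. Against tumour Tconv 6 of the 8 were higher in tumour Treg (Psma1, Psma2, Psma4, Psma6, Psma7 and Psmb2, by 0.23 to 0.46), beside 27.2% of all genes. Psma3 had 14.2 to 16.8 CPM in all 12 libraries and was called in no comparison. Elsewhere in the genome lie 4 near-identical copies of parts of it, each over 11.5% to 27.1% of its transcript.

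**Figure D5:**
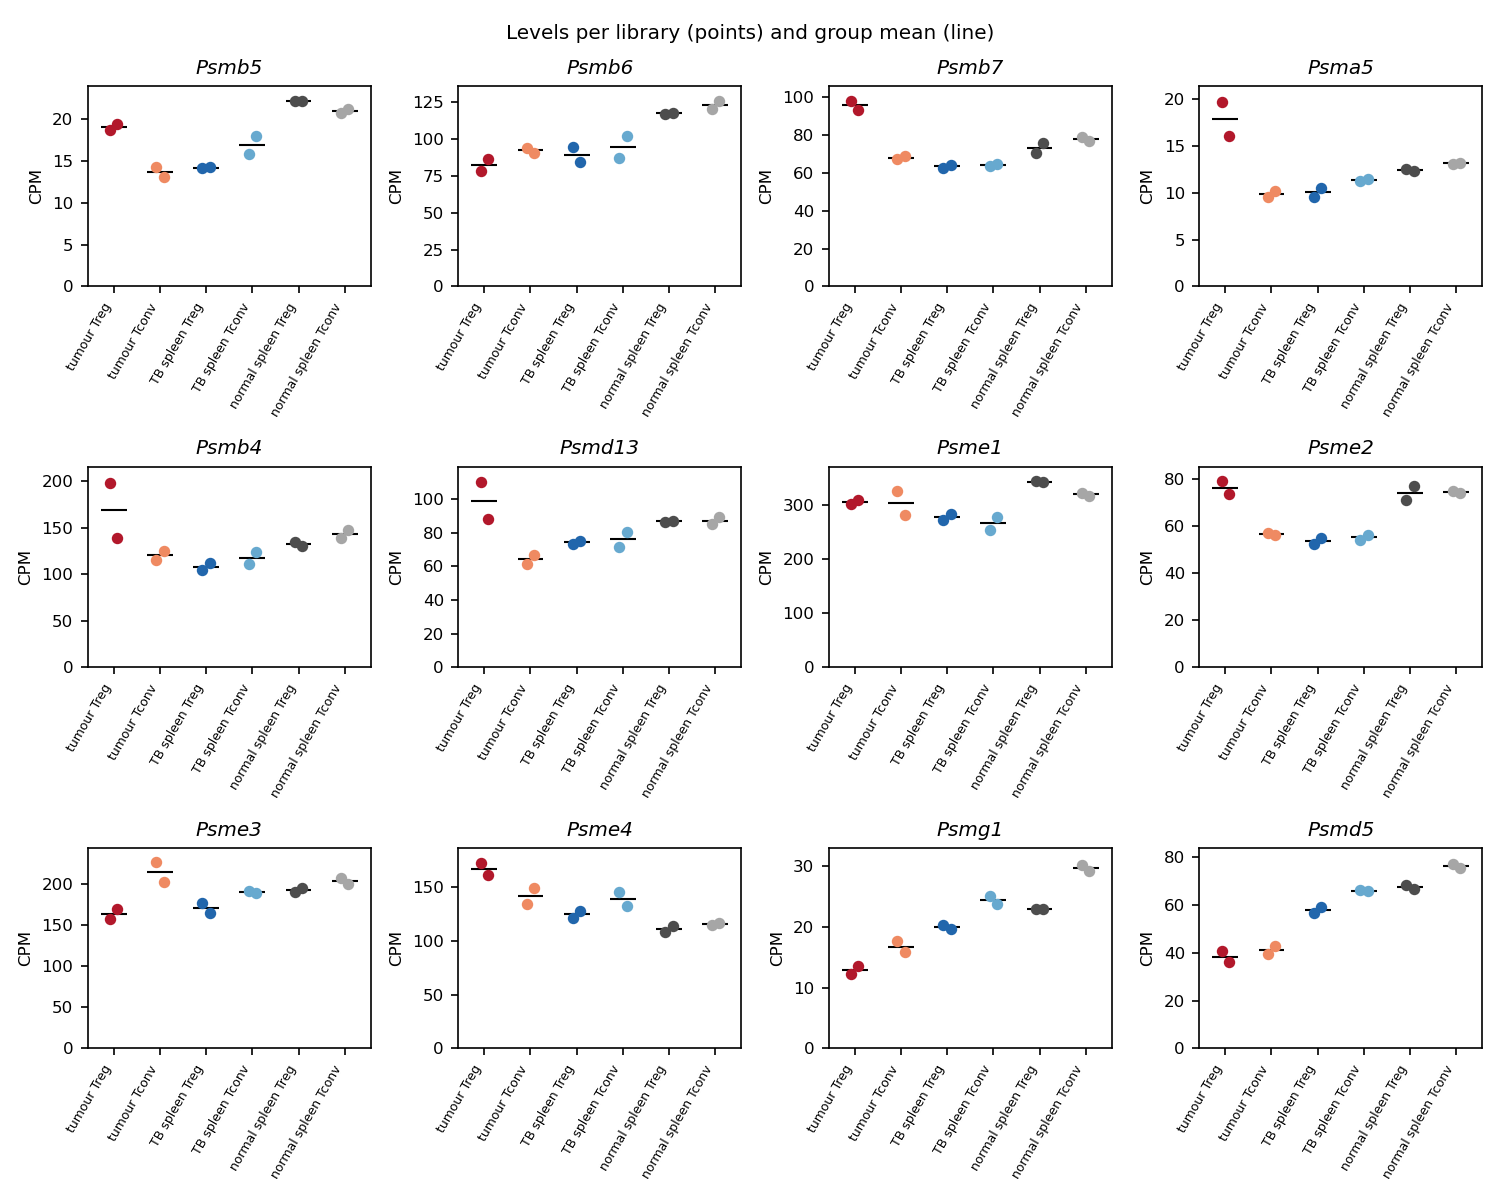
CPM in each library for 12 genes: the catalytic subunits Psmb5, Psmb6 and Psmb7, the structural subunits Psma5, Psmb4 and Psmd13, the activators Psme1 to Psme4 and the chaperones Psmg1 and Psmd5; points are libraries and lines are means of 2. Tumour Treg is highest for Psmb7, Psma5 and Psme4 and lowest for Psmg1, and Psmb6 is highest in normal spleen.

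In tumour Treg over tumour Tconv, 6 of the 17 genes of the 19S particle were higher and 11 of the 14 core genes, beside 27.2% of all genes. The difference between 19S and core genes was not tested. Psmd13 is a subunit of the lid, the part that holds the deubiquitinating enzyme. It had 110 and 87.9 CPM in tumour Treg, 61.3 and 66.9 CPM in tumour Tconv, 73.3 and 75.0 CPM in TB spleen Treg and 71.6 and 80.3 CPM in TB spleen Tconv. In normal spleen it had 86.5 and 87.1 CPM in Treg and 85.0 and 89.1 CPM in Tconv. The tumour Treg libraries were above those of TB spleen, and the second of them lay among those of normal spleen. Its log2 fold change was 0.62 ± 0.10 in tumour Treg over tumour Tconv (adjusted p = 0.000147) and 0.42 ± 0.10 over TB spleen Treg (adjusted p = 0.00249), and the interaction was 0.66 ± 0.14 (adjusted p = 0.00468). Without tumour Treg library 1 the change over TB spleen Treg was 0.25 (adjusted p = 0.0298). Sirt3 on the opposite strand covers 10.1% of its exonic bases.

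Psmd14 is that deubiquitinating enzyme, which removes ubiquitin as substrates enter. It had 111 and 103 CPM in tumour Treg, 86.0 and 88.4 CPM in tumour Tconv, 96.5 and 104 CPM in TB spleen Treg and 110 and 99.5 CPM in TB spleen Tconv. In normal spleen it had 115 and 117 CPM in Treg and 113 and 120 CPM in Tconv. Tumour Tconv was the lowest group. The log2 fold change was 0.30 ± 0.07 in tumour Treg over tumour Tconv (adjusted p = 0.00334) and 0.10 ± 0.07 over TB spleen Treg (adjusted p = 0.251). In tumour over TB spleen Tconv it was -0.26 ± 0.07 (adjusted p = 0.00882). This call ended in the fit of those groups alone, without tumour Tconv library 1 and without TB spleen Tconv library 1.

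Psmd4, a receptor for ubiquitin chains, was called in no comparison. It had 150 and 149 CPM in tumour Treg, 158 and 140 CPM in tumour Tconv, 148 and 137 CPM in TB spleen Treg and 147 and 153 CPM in TB spleen Tconv, and 158 to 161 CPM in the 4 normal spleen libraries. Psmd8, another lid subunit, was the only gene called higher in tumour in both cell types. It had 174 and 194 CPM in tumour Treg, 154 and 155 CPM in tumour Tconv, 149 and 140 CPM in TB spleen Treg, 128 and 137 CPM in TB spleen Tconv, 172 and 184 CPM in normal spleen Treg and 150 and 150 CPM in normal spleen Tconv. Its log2 fold change was 0.35 ± 0.07 in tumour over TB spleen Treg (adjusted p = 0.00102) and 0.22 ± 0.07 in tumour over TB spleen Tconv (adjusted p = 0.0225). The call in Tconv ended with library-size scaling (0.11, adjusted p = 0.193), without tumour Tconv library 2 (adjusted p = 0.0919) and without TB spleen Tconv library 1 (adjusted p = 0.151).

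The 6 ATPases unfold substrates and thread them into the core. Of these, 3 were higher in tumour than in TB spleen Treg (Psmc1, Psmc3 and Psmc5), beside 32.8% of all genes. With library-size scaling all 3 calls ended (adjusted p = 0.286, 0.0853 and 0.309), and that of Psmc5 also ended without tumour Treg library 1 (adjusted p = 0.0613). In tumour Treg over tumour Tconv 2 were higher (Psmc1 and Psmc3), beside 27.2% of all genes, and the call of Psmc1 ended without tumour Tconv library 1 (adjusted p = 0.065). In TB over normal spleen Treg 4 were lower, beside 8.5% of all genes. Psmc5 had a log2 fold change of -0.35 ± 0.07 there (adjusted p = 0.00428), which held under every alternative, while the calls of Psmc2, Psmc3 and Psmc4 did not. Of the exonic bases of Psmc3, 8.25% lie in exons of Slc39a13 on the opposite strand. By edgeR, Slc39a13 was 0.74 in tumour Treg over tumour Tconv (adjusted p = 0.000108) and 0.11 over TB spleen Treg (adjusted p = 0.401). Its interaction was 0.22 (adjusted p = 0.355), and its part in the counts of Psmc3 was not tested. Psmc4 had 103 and 111 CPM in tumour Treg, 101 and 106 CPM in tumour Tconv, 100.3 and 98.6 CPM in TB spleen Treg, 111 and 113 CPM in TB spleen Tconv and 122 to 128 CPM in normal spleen. Its call of -0.17 ± 0.06 in TB spleen Treg over TB spleen Tconv (adjusted p = 0.0357) ended with library-size scaling (adjusted p = 0.137), with no low-count filter (adjusted p = 0.119) and in the fit of those groups alone (adjusted p = 0.0864). This call also ended with the filter of 1 CPM in all 12 libraries, with the replicate block by description number and without any 1 of the 8 spleen libraries. Psmd1, Psmd6, Psmd7 and Psmc6 were called in no comparison.

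PA28 alpha and beta, encoded by Psme1 and Psme2, form an interferon-induced cap of the core linked to antigen presentation. Psme1 had 302 and 310 CPM in tumour Treg, 327 and 282 CPM in tumour Tconv, 273 and 284 CPM in TB spleen Treg, 255 and 279 CPM in TB spleen Tconv, 345 and 342 CPM in normal spleen Treg and 323 and 318 CPM in normal spleen Tconv. It was not called in tumour, at 0.01 ± 0.08 in tumour Treg over tumour Tconv (adjusted p = 0.943). Psme2 had 79.1 and 73.9 CPM in tumour Treg, 57.1 and 56.4 CPM in tumour Tconv, 52.4 and 55.2 CPM in TB spleen Treg, 54.2 and 56.5 CPM in TB spleen Tconv, 71.1 and 77.4 CPM in normal spleen Treg and 75.2 and 74.1 CPM in normal spleen Tconv.

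For Psme2, tumour Treg and normal spleen stood apart from tumour Tconv and TB spleen, with no overlap. Its log2 fold change was 0.51 ± 0.07 in tumour over TB spleen Treg (adjusted p = 4.83e-05) and 0.43 ± 0.07 in tumour Treg over tumour Tconv (adjusted p = 0.000175). In TB over normal spleen it was -0.46 ± 0.07 in Treg (adjusted p = 0.00117) and -0.43 ± 0.07 in Tconv (adjusted p = 0.00163), and these calls held under every alternative. Psme2b, a gene of 1 exon that is 99.4% identical to Psme2 over the aligned bases, cannot be separated from it with certainty in the counts. The sum of both was 258 and 241 CPM in tumour Treg, 190 and 199 CPM in tumour Tconv, 178 and 195 CPM in TB spleen Treg, 196 and 205 CPM in TB spleen Tconv, 254 and 261 CPM in normal spleen Treg and 268 and 267 CPM in normal spleen Tconv.

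Psme3 encodes PA28 gamma, a nuclear activator that is not of the interferon-induced pair, and was lower in tumour Treg than in tumour Tconv. It had 157 and 169 CPM in tumour Treg, 227 and 203 CPM in tumour Tconv, 177 and 165 CPM in TB spleen Treg, 192 and 190 CPM in TB spleen Tconv, 191 and 195 CPM in normal spleen Treg and 208 and 200.1 CPM in normal spleen Tconv. The log2 fold change was -0.40 ± 0.07 (adjusted p = 0.000429), a call that held under every alternative, and the interaction was -0.24 ± 0.10 (adjusted p = 0.102). Psme4 encodes PA200, a large cap. It had 173 and 162 CPM in tumour Treg, 135 and 149 CPM in tumour Tconv, 121 and 128 CPM in TB spleen Treg, 145 and 132 CPM in TB spleen Tconv, 109 and 114 CPM in normal spleen Treg and 115 and 117 CPM in normal spleen Tconv. Unlike most of the 45 genes it had its lowest levels in normal spleen. It rose by 0.42 ± 0.07 in tumour over TB spleen Treg (adjusted p = 0.000318). Over tumour Tconv the difference was 0.23 ± 0.07 (adjusted p = 0.0156), a call that ended without tumour Treg library 1 (adjusted p = 0.0921) or tumour Tconv library 1 (adjusted p = 0.223).

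Psmf1, the inhibitor PI31, was called in no comparison. It had 62.9 and 56.6 CPM in tumour Treg, 60.6 and 58.8 CPM in tumour Tconv, 62.5 and 64.5 CPM in TB spleen Treg, 64.5 and 71.8 CPM in TB spleen Tconv, 67.1 and 72.1 CPM in normal spleen Treg and 71.8 and 76.5 CPM in normal spleen Tconv.

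Of the 7 assembly chaperones, Psmg1, Psmg2 and Psmd5 fell in tumour in both cell types. Of all genes 28.7% were lower in tumour than in TB spleen in Treg and 22.8% in Tconv. Psmg1 and Psmg2 form a dimer that starts the alpha ring. Psmg1 had 12.2 and 13.5 CPM in tumour Treg, 17.6 and 15.8 CPM in tumour Tconv, 20.3 and 19.6 CPM in TB spleen Treg, 25.0 and 23.7 CPM in TB spleen Tconv, 22.9 and 22.9 CPM in normal spleen Treg and 30.2 and 29.1 CPM in normal spleen Tconv. Treg lay below Tconv at each site and tumour below spleen in each cell type, with no overlap. The log2 fold change was -0.64 ± 0.10 in tumour over TB spleen Treg (adjusted p = 0.000122) and -0.55 ± 0.10 in tumour over TB spleen Tconv (adjusted p = 0.000508). Treg over Tconv was -0.38 ± 0.10 in tumour (adjusted p = 0.00608), where the fit of those groups alone gave an adjusted p of 0.13, -0.29 ± 0.09 in TB spleen (adjusted p = 0.0262) and -0.37 ± 0.09 in normal spleen (adjusted p = 0.0059). The call in TB spleen ended with DESeq2 (adjusted p = 0.0826), with library-size scaling (adjusted p = 0.0574), with no low-count filter and without any 1 of the 4 libraries. The call in normal spleen ended without normal spleen Tconv library 1.

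Psmg2 had 15.2 and 10.8 CPM in tumour Treg, 16.1 and 14.6 CPM in tumour Tconv, 16.9 and 18.9 CPM in TB spleen Treg, 23.9 and 22.3 CPM in TB spleen Tconv, 19.3 and 18.5 CPM in normal spleen Treg and 22.8 and 26.2 CPM in normal spleen Tconv. All tumour libraries lay below those of spleen. In tumour over TB spleen the log2 fold change was -0.46 ± 0.15 in Treg (adjusted p = 0.0166) and -0.59 ± 0.15 in Tconv (adjusted p = 0.00537). In Treg it was -0.74 without tumour Treg library 1 (adjusted p = 0.00123), and the call ended without tumour Treg library 2 (adjusted p = 0.16) or TB spleen Treg library 2 (adjusted p = 0.109). Psmg3 and Psmg4 form the second dimer of this kind. Psmg3 had 10.9 and 7.91 CPM in tumour Treg, 8.63 and 7.49 CPM in tumour Tconv, 8.91 and 10.5 CPM in TB spleen Treg, 10.4 and 10.1 CPM in TB spleen Tconv, 12.3 and 13.0 CPM in normal spleen Treg and 12.3 and 11.1 CPM in normal spleen Tconv, and was called in no comparison.

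Psmg4 was lower in Treg than in Tconv of the tumour and of TB spleen. It had 10.7 and 10.0 CPM in tumour Treg, 17.3 and 15.1 CPM in tumour Tconv, 11.0 and 11.2 CPM in TB spleen Treg, 14.7 and 16.8 CPM in TB spleen Tconv, 14.1 and 14.0 CPM in normal spleen Treg and 17.7 and 16.5 CPM in normal spleen Tconv. At each site both Treg libraries lay below both Tconv libraries. The log2 fold change of Treg over Tconv was -0.64 ± 0.12 in tumour (adjusted p = 0.000573), -0.51 ± 0.12 in TB spleen (adjusted p = 0.00412) and -0.28 ± 0.12 in normal spleen (adjusted p = 0.0743), and the first 2 calls held under every alternative.

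Psmd5, Psmd9 and Psmd10 hold the ATPases while the base of the 19S particle is put together. Psmd5 had 40.8 and 36.0 CPM in tumour Treg, 39.6 and 42.7 CPM in tumour Tconv, 56.4 and 58.9 CPM in TB spleen Treg, 66.0 and 65.7 CPM in TB spleen Tconv, 68.3 and 66.7 CPM in normal spleen Treg and 77.0 and 75.6 CPM in normal spleen Tconv. The 4 tumour libraries lay below all 8 spleen libraries. In tumour over TB spleen the log2 fold change was -0.59 ± 0.07 in Treg (adjusted p = 2.96e-05) and -0.68 ± 0.07 in Tconv (adjusted p = 1.54e-05), held under every alternative, and the interaction was 0.09 (adjusted p = 0.593).

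Exons of Gm26745 on the opposite strand cover 25.5% of the exonic bases of Psmd9. Psmd9 is the chaperone called higher in tumour Treg than in TB spleen Treg. It had 25.7 and 27.3 CPM in tumour Treg, 25.3 and 26.9 CPM in tumour Tconv, 21.3 and 22.0 CPM in TB spleen Treg, 21.9 and 23.2 CPM in TB spleen Tconv, 23.9 and 25.3 CPM in normal spleen Treg and 21.4 and 23.1 CPM in normal spleen Tconv. Its call of 0.29 ± 0.09 in tumour over TB spleen Treg (adjusted p = 0.0119) ended with library-size scaling (adjusted p = 0.221), without tumour Treg library 2 (adjusted p = 0.0575) and without TB spleen Treg library 1 (adjusted p = 0.0777). Psmd10 had 26.1 and 29.7 CPM in tumour Treg, 19.7 and 22.2 CPM in tumour Tconv, 26.6 and 29.0 CPM in TB spleen Treg, 29.7 and 25.9 CPM in TB spleen Tconv, 33.9 and 30.3 CPM in normal spleen Treg and 35.3 and 35.2 CPM in normal spleen Tconv. Tumour Tconv was lowest, with a log2 fold change of -0.40 ± 0.11 over TB spleen Tconv (adjusted p = 0.00854), and tumour Treg was higher than tumour Tconv by 0.41 ± 0.11 (adjusted p = 0.00629). Without tumour Tconv library 1 both calls ended, as did the first without TB spleen Tconv library 1 and the second without tumour Treg library 2. The first also ended in the fit of the groups compared alone.

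Psmc3ip was low in every library, with 2.21 and 2.58 CPM in tumour Treg, 2.88 and 2.81 CPM in tumour Tconv, 1.96 and 2.79 CPM in TB spleen Treg, 2.55 and 2.38 CPM in TB spleen Tconv, 2.30 and 1.74 CPM in normal spleen Treg and 3.21 and 4.01 CPM in normal spleen Tconv. Its 1 call, -0.83 ± 0.27 in normal spleen Treg over normal spleen Tconv (adjusted p = 0.0259), ended with DESeq2 (adjusted p = 0.0605), without normal spleen Treg library 2 (adjusted p = 0.174) and without normal spleen Tconv library 2 (adjusted p = 0.171). Mlx on the opposite strand covers 21.2% of its exonic bases.

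Of 20 genes that work with the proteasome but lie outside the symbol rule, 7 (35%) were higher and 5 (25%) lower in tumour than in TB spleen Treg, beside 32.8% and 28.7% of all genes. In tumour Treg over tumour Tconv 5 (25%) were higher and 10 (50%) lower, beside 27.2% and 26.7% of all genes. Pomp, the maturation factor of the core, had 104 and 89.2 CPM in tumour Treg, against 61.7 and 66.8 CPM in tumour Tconv and 74.1 and 77.9 CPM in TB spleen Treg, a log2 fold change of 0.59 over tumour Tconv (adjusted p = 6.23e-05). Nfe2l1, the transcription factor known to raise proteasome genes when proteasomes fail, was called in no comparison.

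Promoter windows, 250 bases before to 50 after the annotated start, were found in the RefSeq table of GRCm38.p6 for 39 of the 47 genes. Those of 4 genes that moved differently are shown: Psmb5 and Psmd13, higher in tumour Treg than in tumour Tconv, Psme4, higher in tumour Treg but lowest in normal spleen, and Psmg1, lower in tumour. Capitals mark matches, on either strand, to TGACNNNGC (core of the antioxidant response element), CCGGAAG (ETS), TTCNNNGAA (GAS), GAAANNGAA (interferon response element) and GCGCATGCG (NRF1).
Psmb5, chr14:54617946-54618245, minus strand: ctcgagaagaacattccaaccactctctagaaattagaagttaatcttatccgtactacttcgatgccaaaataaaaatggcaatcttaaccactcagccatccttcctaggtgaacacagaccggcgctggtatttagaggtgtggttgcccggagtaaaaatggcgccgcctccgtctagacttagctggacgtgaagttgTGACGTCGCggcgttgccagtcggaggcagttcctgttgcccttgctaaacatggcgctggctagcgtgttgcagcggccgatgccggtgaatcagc
Psmd13, chr7:140882144-140882443, plus strand: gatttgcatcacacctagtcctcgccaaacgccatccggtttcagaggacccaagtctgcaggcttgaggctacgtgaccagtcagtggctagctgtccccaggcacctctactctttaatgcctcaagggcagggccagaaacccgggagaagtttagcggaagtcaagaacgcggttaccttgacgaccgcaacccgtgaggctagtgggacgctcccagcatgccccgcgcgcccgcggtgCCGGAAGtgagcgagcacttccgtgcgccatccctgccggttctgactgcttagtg
Psme4, chr11:30771525-30771824, plus strand: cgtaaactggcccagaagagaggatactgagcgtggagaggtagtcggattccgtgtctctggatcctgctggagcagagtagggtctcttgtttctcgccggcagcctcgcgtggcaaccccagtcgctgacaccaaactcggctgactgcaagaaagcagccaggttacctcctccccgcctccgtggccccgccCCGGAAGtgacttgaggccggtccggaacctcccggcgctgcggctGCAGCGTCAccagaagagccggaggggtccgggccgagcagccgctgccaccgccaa
Psmg1, chr16:95990911-95991210, minus strand: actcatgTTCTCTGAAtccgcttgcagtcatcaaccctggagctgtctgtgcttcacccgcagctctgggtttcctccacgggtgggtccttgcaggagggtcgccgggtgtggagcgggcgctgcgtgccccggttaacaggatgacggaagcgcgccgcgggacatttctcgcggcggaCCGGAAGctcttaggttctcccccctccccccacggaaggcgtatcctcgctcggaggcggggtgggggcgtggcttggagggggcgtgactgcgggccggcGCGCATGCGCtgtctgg
In Psmb5 the capitals are the antioxidant response element core, in Psmd13 the ETS match, in Psme4 the ETS match and then the antioxidant response element core on the minus strand, and in Psmg1 the GAS, ETS and NRF1 matches, the last of them on both strands with an overlap.

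The ETS letters stood in 15 of the 39 genes (38.5%), against 9.93% of 27025 genes with a window. They were in 5 of the 18 windows of genes higher in tumour Treg than in tumour Tconv, in 2 of 3 of those lower and in 8 of 17 of those not called. The antioxidant response element core stood in 6 genes (15.4%), against 14.0% of all genes, the interferon response element in 7 (17.9%), against 9.76%, GAS in 2 (5.13%), against 9.55%, CCAAT in 14 (35.9%), against 41.1%, and NRF1 in 2 (5.13%), against 1.95%. A match is a string of letters and no measured binding.

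Per kilobase of transcript, with lengths from GENCODE vM21, Psme1 had the highest level, 273 CPM per kb over the 12 libraries. The median level was 79.7 CPM per kb in the alpha ring, 63.5 in the beta ring, 63.0 in the ATPases, 58.0 in the other 19S genes and 14.4 in the chaperones. Near-identical copies, of at least 95% identity over at least 200 bases, exist for 10 of the 47 genes and for 8 of the 31 subunits. The 4 subunits of lowest level per kilobase, Psma3, Psma5, Psmd11 and Psmb5, all have one, and reads that match a copy equally well may be missing from their counts. Of the 23 subunits without a copy 11 were higher in tumour Treg than in tumour Tconv (median log2 fold change 0.16), and of the 8 with a copy 6 (0.41). Exons of 10 of the 47 genes overlap a gene on the opposite strand, and for these the counts of both genes are uncertain. Exons of 4 genes overlap a gene on the same strand, among them Psmb5, where Mir686 covers 12.1% of the exonic bases.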

How the data were processed

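RNA-seq of 12 libraries was analysed from 1 table of whole-number counts per gene, deposited by the authors. Per the submitters' processing notes, STAR, featureCounts and mm10 were used; versions, annotation and strand setting are not given in the sources used here. Libraries were grouped by title. Counts were tested as deposited with edgeR 4.0.16 (R 4.3.3): TMM scaling (factors 0.942 to 1.07), filterByExpr by group, 1 model of 6 groups with 6 residual degrees of freedom, and quasi-likelihood F tests with Benjamini-Hochberg adjustment over 13509 genes within each of 7 comparisons and 2 interactions, called below 0.05. SE is the absolute log2 fold change divided by the square root of F, and the common biological coefficient of variation was 0.0863. Only the edgeR fit was tested on simulated counts, for tumour over TB spleen Treg and for the site interaction. The genes and lists were chosen with earlier results of these data known. Values in every library are given for the catalytic subunits, activators, inhibitor, chaperones, Psmd4, Psmd14 and Psmc3ip. In each comparison they are also given for the 4 called genes of largest absolute change whose mean log2 CPM reached 3. Sirt3, Mlx, Nek6 and Slc39a13 were looked up afterwards. Alternatives were library-size scaling, DESeq2 size factors, DESeq2 1.42.0, limma-voom (limma 3.58.1), no low-count filter, 1 CPM in all 12 libraries, only the groups compared, a replicate block by title number and another by description number, and leaving out each library. Coordinates, lengths and overlaps came from GENCODE vM21 (GRCm38), copies from BLAST 2.17.0, promoters from RefSeq; tables and figures used Python 3.11.15, pandas 2.3.3 and matplotlib 3.10.9.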

Additional observations from a re-analysis of the deposited data

Results flagged for a closer look

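The tumour-over-spleen change differed between Treg and Tconv, by the interaction test, for 19 of the 45 genes, given here as the log2 change in Treg minus that in Tconv. Among core subunits it was 1.03 for Psma5, 0.73 for Psmb5, 0.62 for Psmb3, 0.61 for Psmb4, 0.51 for Psmb7, 0.42 for Psma6, 0.40 for Psma1, 0.38 for Psmb2, 0.37 for Psma4 and 0.36 for Psma2. Among 19S subunits it was 0.66 for Psmd13, 0.38 for Psmc1, 0.37 for Psmc3, 0.36 for Psmd14, 0.30 for Psmd2 and 0.28 for Psmc5. Among activators it was 0.47 for Psme2, 0.46 for Psme2b and 0.39 for Psme4. The value for Psmb4 rests in part on tumour Treg library 1, without which it was 0.33 (adjusted p = 0.0639).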

How the results depend on the processing

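Of 113 calls on single genes, 49 held under all 21 alternatives, 64 ended under at least 1 and 0 reversed. Library-size scaling gave 11 higher and 10 lower genes in tumour over TB spleen Treg, 0 and 26 in tumour over TB spleen Tconv, 1 lower in TB spleen Treg over Tconv, 2 higher in normal spleen Treg over Tconv, 5 lower in TB over normal spleen Tconv and 1 negative site interaction. In tumour over TB spleen Tconv, DESeq2 size factors gave 4 higher and 7 lower, DESeq2 3 and 7, no filter 2 and 7, and the 1 CPM filter 4 and 7. In normal spleen Treg over Tconv, DESeq2 size factors gave 5 lower and limma-voom 4; no filter gave 1 lower in TB spleen Treg over Tconv. Fitting only the groups compared gave 4 lower in tumour over TB spleen Tconv, 5 lower in TB spleen and 2 higher and 7 lower in normal spleen Treg over Tconv, 1 higher and 30 lower in TB over normal spleen Treg, and 9 positive site interactions. The causes were not tested.

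Leaving out 1 library at a time gave 17 to 20 higher and 2 to 3 lower genes in tumour over TB spleen Treg, 0 to 2 and 5 to 14 in tumour over TB spleen Tconv, 15 to 22 and 3 to 4 in tumour Treg over tumour Tconv, 0 and 1 to 6 in TB spleen and 0 to 1 and 1 to 5 in normal spleen Treg over Tconv, 0 and 4 to 23 in TB over normal spleen Treg, 0 to 1 and 3 to 19 in TB over normal spleen Tconv, and 11 to 21 positive and 0 to 1 negative site interactions.

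The correlation of deviations between libraries of the same title number was -0.129 to 0.148 over 15 pairs of groups, and above 0.1 in 3. Those 3 were all among the 6 pairs of tumour-bearing groups, where the range was -0.039 to 0.148. With 2 libraries a group, such values cannot decide whether libraries of the same number share a mouse. The labels do not say so, and the main fit does not pair them. A fit with the replicate number as a block ended 2 of the 113 calls, with 20 higher and 3 lower genes in tumour over TB spleen Treg. The numbers in the descriptions equal those of the titles for tumour-bearing mice, but are 2 and 3 for normal spleen Treg and 1 and 3 for normal spleen Tconv. A replicate block on the description numbers, chosen after seeing the data, ended 28 calls, 12 and 10 of them in TB over normal spleen Treg and Tconv, where 0 genes were higher and 4 lower in Treg and 0 higher and 3 lower in Tconv. With 2 libraries a group, low counts such as those of Psmc3ip limit the precision.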
